A study of Homo sapiens with 40 samples.

Results

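The genes described here encode, in the nucleus, subunits of 4 complexes of mitochondrial oxidative phosphorylation. They were chosen by name among the genes typed as protein coding: NDUFA, NDUFB, NDUFC, NDUFS or NDUFV with a number for complex I, names that begin with UQCR for complex III, with COX4 to COX8 for complex IV, and with ATP5 for complex V. This gave 83 of the 57939 genes in the table of total RNA, of which 37 belonged to complex I, 9 to complex III, 17 to complex IV and 20 to complex V. In the separate table of polyA RNA, 82 of 58336 genes matched by name and 80 of them were the same genes. The other 2, ATP5S and ATP5SL, are older names for genes that the total RNA table lists as DMAC2L and DMAC2. All 83 genes had a row in the polyA table by identifier. A choice by name takes in ATP5IF1, an inhibitor of the ATP synthase, and COX7A2L, which is known for joining complexes III and IV into larger assemblies. It also places NDUFA4 in complex I by its name, although the protein is now counted as part of complex IV.

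The respiratory chain passes electrons from NADH through complex I to ubiquinone, from ubiquinol through complex III to cytochrome c, and from cytochrome c through complex IV to oxygen, and complex V uses the resulting proton gradient to make ATP. Most subunits are made from nuclear mRNAs on cytosolic ribosomes, some of them at the mitochondrial surface, and are imported, while a few core subunits of the same complexes are encoded and translated inside the mitochondrion. Pluripotent stem cells are known for drawing much of their ATP from glycolysis, with oxidative metabolism rising in many of their differentiated progeny.

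RNA came from H1 cells, an established human embryonic stem cell line of wild-type genotype, kept undifferentiated (day 0) or driven towards mesoderm for 3 or 5 days in serum-containing medium with the growth factor BMP4 for the first day and bFGF after it. Successive buffers of a protein fractionation kit gave a cytoplasmic extract (CE), a membrane extract (ME), a soluble nuclear extract (SNE), a chromatin-bound nuclear extract freed with micrococcal nuclease (CBNE) and an extract of the remaining pellet (PE). The INPUT libraries are read here as unfractionated RNA. There were 36 total RNA libraries, which form 18 pairs by day and extract. A further 4 libraries hold polyA RNA from the cytoplasm and the nucleus at day 0, with 2 per compartment. The labels do not say whether the 2 libraries of a group came from separate cultures, so p-values measure the spread between these libraries, which may be technical. Library numbers jump within day 5, between replicate 1 of ME, which follows INPUT and CE, and replicate 2 of ME, which precedes SNE, CBNE and PE. The gap between SNE and CE on that day therefore cannot be told apart from the gap in numbers.

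Values are TPM, reads scaled by gene length to a fixed total, so each is a share of its library and not an amount per cell. A read on a transcript of 1 kb was worth 0.707 to 1.81 TPM in CE, ME, SNE and INPUT, 13.8 to 61.8 in CBNE, 3.37 to 30.8 in PE and 0.231 to 0.356 in polyA RNA. CBNE and PE are therefore described without a test. The labels held against defining markers with an exception. POU5F1 averaged 80.9 TPM in INPUT on day 0 and 36.2 on day 5, and HAND1, a mesoderm factor, 0.740 and 787. MT-CO1 averaged 86319 TPM in day 0 ME against 2637 in CE, and the nuclear RNA MALAT1 9577 in SNE against 2181. SOX2, a pluripotency factor, was listed at 0 in every group of CE, ME, SNE and INPUT.

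Some subunits that every respiring cell uses were also listed at or near 0 in the total RNA table. Of the 83 members, 67 reached 1 TPM in at least 2 of the 24 libraries of CE, ME, SNE and INPUT and were tested: 31 of complex I, 8 of III, 12 of IV and 16 of V. Of the other 16, COX4I2, COX7B2, COX8C and ATP5MGL are paralogs or isoform genes with no exon shared with another gene, and ATP5MF-PTCD1 is a read-through gene that shares 88.3% of its exon bases. The remaining 11 were NDUFA7, NDUFA9, NDUFA11, NDUFA13, NDUFB8, NDUFV2, UQCR11, COX6A1, COX8A, ATP5MF and ATP5PO. Each of these 11 shared between 8.57% and 34.5% of its exon bases on the same strand with another annotated gene, in most cases a read-through gene. Of the 11, NDUFV2, NDUFA7, NDUFA9, ATP5MF, NDUFA11, NDUFA13 and NDUFB8 were low in polyA cytoplasm too, at 0 to 5.57 TPM. Among the 67 tested members, 8 shared 5% or more: COX6B2 (30.9%), NDUFS3 (19.6%), NDUFC1 (18.5%), NDUFC2 (16.3%), ATP5MD (15.4%), NDUFV1 (8.37%), ATP5MG (8.19%) and ATP5MC2 (6.99%). Reads of these 8 can be split with the gene that shares their exons, so their values are uncertain.

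The other 4 of the 11 were higher in polyA RNA. COX8A, a small subunit of complex IV, shows the contrast between the tables. It measured 185 and 142 TPM in the polyA cytoplasm libraries and 42.2 and 36.6 in the nuclear ones, but was at 0 in 35 of 36 total RNA libraries, the exception being 0.539 TPM in 1 day 5 INPUT library. The read-through gene that shares its exons, AP000721.1, averaged 2.75 TPM in day 0 CE. COX6A1, a regulatory subunit of complex IV, measured 77.7 and 61.9 TPM in polyA cytoplasm and at most 1.34 TPM in any total RNA library. UQCR11 of complex III and ATP5PO, the stalk subunit of the ATP synthase known as OSCP, averaged 11.7 and 10.8 TPM in polyA cytoplasm and were at 0 in all 36 total RNA libraries. The reverse also occurred. ATP5MC1, which encodes the c subunit of the rotor, was at 0 in all 4 polyA libraries and at 160 and 167 TPM in day 0 CE, and ATP5PD, a stalk subunit, measured 0.0749 and 0.143 TPM in polyA cytoplasm against 150.4 and 161 in CE. Across all protein-coding genes, 27 were under 1 TPM in all 24 deep total RNA libraries and at 10 TPM or more in polyA cytoplasm, and 24 of them (88.9%) shared at least 5% of their exon bases, against 427 of 8576 (4.98%) of the genes that reached 1 TPM in total RNA and 10 TPM in polyA cytoplasm. Which step of the processing gave the zeros was not tested, and for these members a value at 0 is only a listing.

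**Figure D1:**
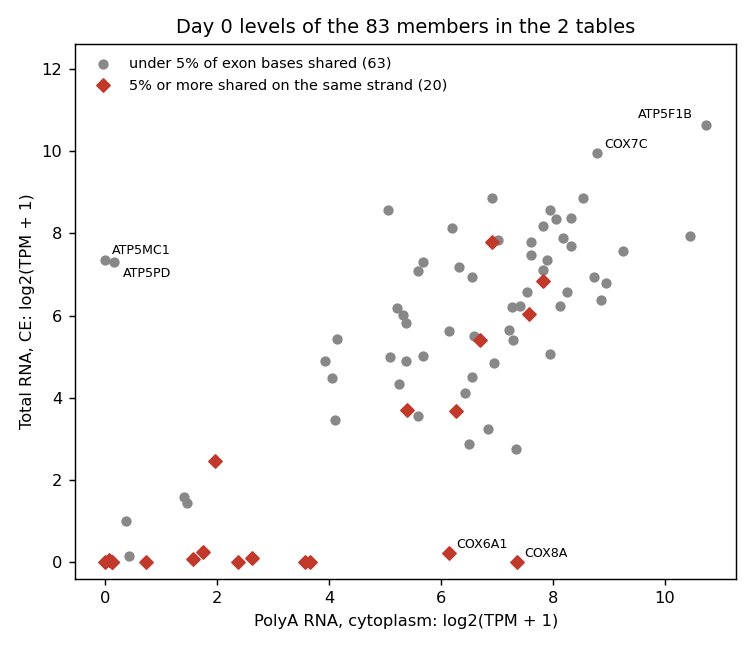
Mean level of each of the 83 members on day 0 in polyA RNA of the cytoplasm (horizontal axis) and in total RNA of CE (vertical axis), both as log2(TPM + 1), n = 2 libraries each. Red diamonds mark the 20 members that share 5% or more of their exon bases with another gene on the same strand, 12 of which were not tested in total RNA, and COX8A and COX6A1 lie on the floor of the total RNA axis while ATP5MC1 and ATP5PD lie at the left edge.

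Near-identical copies were compared for 3 members, and the coding sequences of 2 of these pairs are shown because so few bases separate them. COX6A1 lies at chr12:120438090-120440742 (plus strand, GRCh38) and its pseudogene COX6A1P2 at chr6:37044860-37045189 (plus strand). Their coding sequences match at 326 of 330 bases, and the first 300 are given 5′ to 3′ from GENCODE 29, with the 4 differing bases in capitals.
COX6A1: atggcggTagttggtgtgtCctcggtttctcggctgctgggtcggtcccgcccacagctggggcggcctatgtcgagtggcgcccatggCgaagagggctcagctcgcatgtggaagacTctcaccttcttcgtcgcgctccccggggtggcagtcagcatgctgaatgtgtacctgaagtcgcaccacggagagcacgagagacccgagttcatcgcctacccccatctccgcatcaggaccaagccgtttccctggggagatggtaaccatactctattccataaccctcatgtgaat
COX6A1P2: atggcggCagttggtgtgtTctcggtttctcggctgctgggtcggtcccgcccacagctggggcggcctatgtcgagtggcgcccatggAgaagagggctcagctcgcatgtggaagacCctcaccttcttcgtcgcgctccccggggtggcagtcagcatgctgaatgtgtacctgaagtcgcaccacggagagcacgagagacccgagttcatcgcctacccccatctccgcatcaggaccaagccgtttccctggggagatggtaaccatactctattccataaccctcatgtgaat
The pseudogene, not the gene, carried the signal in total RNA: COX6A1P2 measured 63.9 and 54.8 TPM in day 0 CE and 202 and 172 in day 0 ME, while COX6A1 measured 0.331 and 0 in CE and 0.708 and 1.34 in ME. UQCRH, the hinge protein of complex III, lies at chr1:46303631-46316776 (plus strand), and its paralog UQCRHL, also a member, at chr1:15807169-15809348 (minus strand). They match at 272 of 276 coding bases.
UQCRH: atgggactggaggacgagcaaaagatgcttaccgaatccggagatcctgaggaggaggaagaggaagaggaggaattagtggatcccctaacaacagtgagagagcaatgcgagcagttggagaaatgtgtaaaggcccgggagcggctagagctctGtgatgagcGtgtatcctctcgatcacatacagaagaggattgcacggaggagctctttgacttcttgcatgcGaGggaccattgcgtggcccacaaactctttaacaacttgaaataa
UQCRHL: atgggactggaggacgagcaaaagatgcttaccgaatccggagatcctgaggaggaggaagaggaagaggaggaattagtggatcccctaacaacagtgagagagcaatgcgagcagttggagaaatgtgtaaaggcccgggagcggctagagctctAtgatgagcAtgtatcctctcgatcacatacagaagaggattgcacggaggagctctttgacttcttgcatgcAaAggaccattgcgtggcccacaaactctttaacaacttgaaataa
UQCRH measured 184 and 193 TPM in day 0 CE and UQCRHL 26.6 and 31.1. The third, NDUFV2, an iron-sulfur subunit of complex I, has the pseudogene NDUFV2P1 at chr19:53223973-53224879 (minus strand), and 681 of 694 aligned bases match (98.1%). NDUFV2P1 measured 27.1 and 26.6 TPM in day 0 CE, and NDUFV2 at most 0.0329 in any total RNA library. Reads of these genes can be split between copies, so their single values are uncertain.

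In the INPUT libraries of total RNA, where some members are listed at or near 0, the ATP synthase supplied the largest part of the members' signal. On day 0 the members together made up 0.776% and 0.767% of all TPM in the 2 INPUT libraries. Complex V took 37.3% ± 0.458 (SD, n = 2) of that, complex I 26.3% ± 0.137, complex IV 22.1% ± 0.0867 and complex III 14.2% ± 0.408. The order was another in polyA RNA, where complex I took 39.6% in the cytoplasm and 36.9% in the nucleus. Complex V took 27.9% and 32.7% there. In total RNA INPUT on day 0, single members ranked as follows. ATP5F1B, the catalytic beta subunit of the ATP synthase (chr12:56638175-56646068, minus strand, GRCh38), was the most abundant member at 1180.0 and 1159.9 TPM. COX7C, a small structural subunit of complex IV, followed at 803 and 767 TPM. The next level, near 300, was held by UQCRQ, the ubiquinone-binding accessory subunit of complex III, at 336 ± 20.2 TPM (SD, n = 2), NDUFB10 at 309 ± 17.2, COX5B at 309 ± 0.0338 and ATP5ME at 307 ± 19.4. NDUFB10, COX5B and ATP5ME did not differ beyond their spread.

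In total RNA INPUT the catalytic core of complex I was less abundant and uneven, on the same scale per length. NDUFV1, which carries the flavin that accepts electrons from NADH, measured 145 and 156 TPM in day 0 INPUT. The iron-sulfur subunit NDUFS8 measured 104 and 109. NDUFS7, NDUFS1 and NDUFS3 were lower still, at 30.5 and 31.5, 22.2 and 23.7, and 13.9 and 16.7 TPM. In complex III the core proteins UQCRC1 and UQCRC2 measured 146 and 153, and 9.89 and 10.5, and the Rieske iron-sulfur protein UQCRFS1 128 and 129.5. The low levels did not all recur in polyA cytoplasm. There UQCRC2 measured 104 and 123 TPM, NDUFS3 44.2 and 37.7, NDUFS1 39.5 and 41.4, and NDUFS7 17.5 and 15.7. UQCRC2 also varied between libraries, at 11.6 and 5.31 TPM in day 3 INPUT. ATP5IF1 and NDUFA6 varied widely between the libraries of a group. ATP5IF1 measured 38.0 and 6.80 TPM in day 3 INPUT, and NDUFA6 36.4 and 6.38 in day 0 CE, so no direction is read from either.

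The share of the members was highest in the cytoplasmic extract and lower in each of the others. In CE they made up between 0.922% and 1.02% of TPM over 6 libraries, and in INPUT between 0.579% and 0.776%. ME held 0.255% to 0.327% and SNE 0.219% to 0.286%. CBNE held 0.108% to 0.163% and PE 0.127% to 0.240%. The CE range lies above all others in total RNA, INPUT lies next, and ME and SNE overlap. In polyA RNA the cytoplasm libraries held 1.36% and 1.23% and the nuclear ones 0.595% and 0.586%. The partner mRNAs made in mitochondria went the other way: the ratio of mitochondrial-encoded mRNA to the members was 1.41 to 1.79 in CE, 25.2 to 35.4 in INPUT and 141 to 211 in ME.

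**Figure D2:**
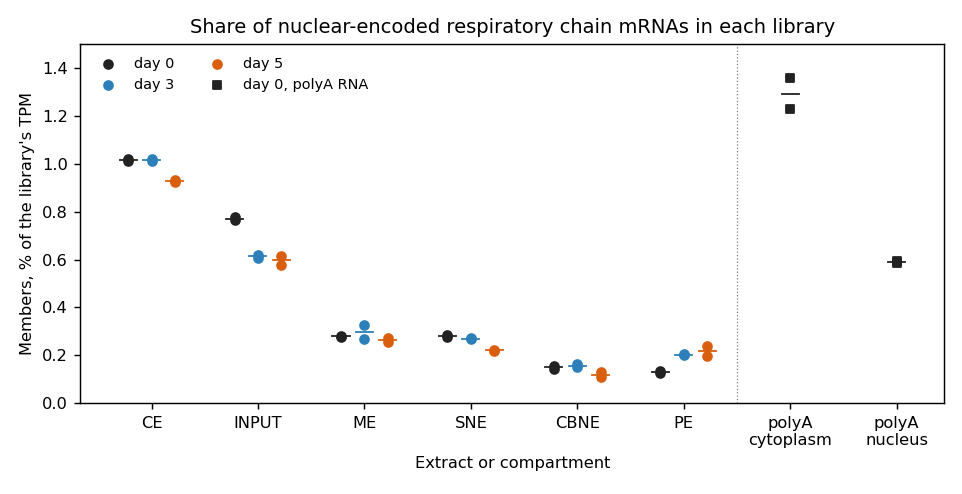
Summed TPM of the members as a percentage of each library's TPM (vertical axis) by extract or compartment (horizontal axis), 1 point per library, with a short line at the mean of each group and colours for days. The CE libraries sit between 0.922% and 1.02% on all days, above every other total RNA extract, and polyA cytoplasm sits above polyA nucleus.

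The first test asked which members were lower or higher in the membrane extract than in the cytoplasmic extract. A gene was called where limma's adjusted p was under 0.05 and the difference of mean log2(TPM + 1) was at least 1, with all 23238 tested genes in the fit. On day 0, 49 of 67 members were lower in ME and 0 higher, when 20.4% of all genes were lower and 2.13% higher. Without regard to size, 57 members were lower and 2 higher at an adjusted p under 0.05, against 37.9% and 16.0% of all genes. On day 3, 52 were lower and 0 higher (10.8% and 1.72% of all genes), and on day 5 again 52 and 0 (10.3% and 2.82%). Without regard to size, 58 members were lower and 0 higher on each of these days, against 27.0% and 17.0% of all genes on day 3 and 26.5% and 20.9% on day 5. The median difference of the members was -1.75, -1.71 and -1.75 on the 3 days, beside -0.15, 0.00 and 0.00 over all tested genes. The median coding length was 387 bases in the 83 members and 1293 in all protein-coding genes. All tested protein-coding genes under 500 coding bases had medians of -1.12, -0.924 and -0.862. The 43 tested members of that class had -1.746, -1.76 and -1.797.

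These counts depend on what the TPM total is made of, since mitochondrial-encoded mRNA took 57.9% ± 1.53 (SD, n = 2) of TPM in day 0 ME and 1.51% ± 0.0981 in day 0 CE. With totals made anew without mitochondrial-encoded genes and structured RNA, 12 members were lower and 6 higher on day 0, 16 and 2 on day 3, and 22 and 1 on day 5. Most calls over all genes were then higher: 922 were lower and 6949 higher on day 0, 490 and 5098 on day 3, and 565 and 5164 on day 5. This scaling moved the median of all genes to 0.58, 0.47 and 0.47 and that of the members to -0.42, -0.72 and -0.80, so the members stayed 1.00, 1.19 and 1.28 below the median gene. Under quantile normalisation 24 members were lower and 1 higher on day 0, 31 and 0 on day 3, and 34 and 0 on day 5. Over all genes it gave 2326 lower and 1791 higher on day 0, 1218 and 746 on day 3, and 1370 and 924 on day 5. As a share of TPM without those RNA classes, the members held 1.05% ± 0.00536 in day 0 CE and 0.729% ± 0.0223 in day 0 ME (SD, n = 2). On day 5 they held 0.956% ± 0.00803 and 0.518% ± 0.0116. The members' share was thus lower in ME than in CE on both scales, by a wider ratio on the scale with mitochondrial RNA.

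The complexes differed in how many members were lower in ME. Complex V led, with 15 of 16 members lower on each day and medians of -2.12, -1.80 and -1.80. Complex III had 7 of 8 lower on each day (-2.28, -1.90 and -2.002). Complex I had 22, 22 and 21 of 31 (-1.37, -1.53 and -1.39). Complex IV had 5, 8 and 9 of 12, with medians of -0.90, -1.52 and -1.64, and with NDUFA4 counted in it 5, 9 and 10 of 13. The 12 include isoform genes near the floor, where log2(TPM + 1) can hardly fall by 1. In day 5 CE, COX6A2 measured 0 and 0 TPM, COX6B2 0.147 and 0, and COX7A1 1.66 and 1.12. The 9 members lower on day 5 were all the others. In complex I, NDUFA3 and NDUFC2 were likewise under 1 TPM in day 5 CE. The counts by complex are descriptions, since no test compared the complexes. For comparison, 68 of 80 tested mRNAs of cytosolic ribosomal proteins were lower in ME on day 0 (median -1.93) and 51 of 69 of mitochondrial ribosomal proteins (-1.67), while all 13 mitochondrial-encoded mRNAs were higher (5.20).

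**Figure D3:**
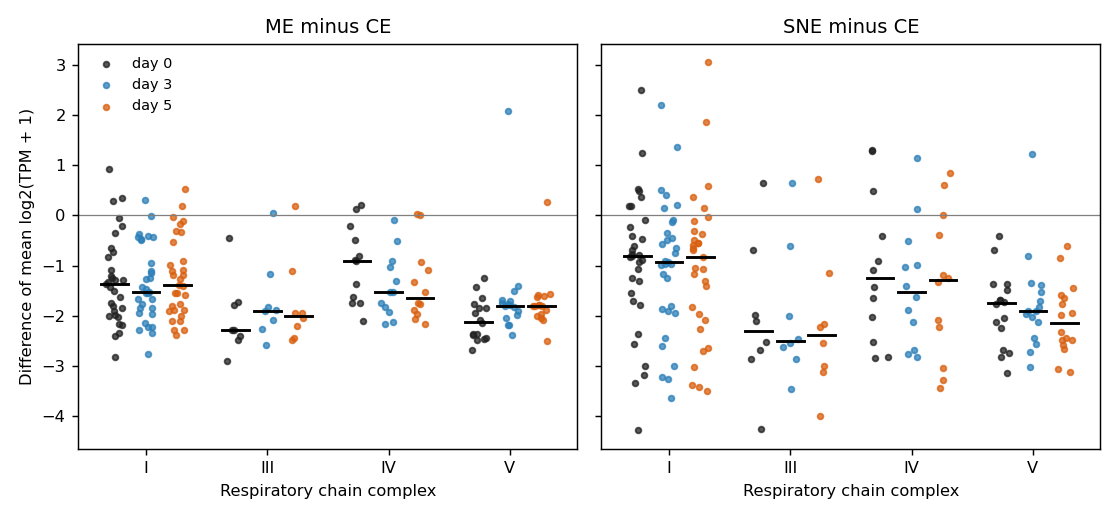
Difference of mean log2(TPM + 1) from CE for every tested member (vertical axis) by complex (horizontal axis), for ME on the left and SNE on the right, with colours for days and black lines at the median of each complex. Complexes III and V lie lowest in both panels, and in complex IV the ME median moves from -0.90 on day 0 to -1.64 on day 5.

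Among single members, UQCR10, a small subunit of complex III (chr22:29767369-29770413, plus strand, GRCh38), fell furthest on day 0. It measured 235 and 232 TPM in CE and 31.7 and 28.8 in ME, a log2 difference of -2.91 (SE 0.0908, limma adjusted p = 6.29e-12). NDUFB11, a membrane-arm subunit of complex I, measured 312 and 341 TPM in CE and 47.4 and 43.3 in ME (-2.82, adjusted p = 4.07e-09). The CE and ME libraries of both genes are far apart. ATP5F1B fell from 1595.1 and 1571.0 TPM in CE to 228 and 262 in ME (-2.69), and ATP5F1E, the epsilon subunit of the central stalk, and UQCRFS1 by 2.48 on the log2 scale each. All 5 also passed with mitochondrial-encoded and structured RNA left out and under quantile normalisation. On day 3 the lowest 5 were NDUFB11 (-2.76), UQCR10 (-2.59), the delta subunit ATP5F1D (-2.38), NDUFB10 (-2.34) and NDUFA1 (-2.29). On day 5 they were ATP5F1D (-2.499), UQCRHL (-2.49), UQCR10 (-2.44), NDUFB11 (-2.38) and NDUFA2 (-2.30).

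The catalytic members did not all behave alike. The ATP synthase alpha subunit ATP5F1A differed by -2.47 on day 0 and the beta subunit by -2.69. In complex I, NDUFS8 (-2.01), NDUFV1 (-1.84), NDUFS7 (-1.75), NDUFS3 (-1.29) and NDUFS1 (-1.09) were lower. In complex III, UQCRC1 was lower by 2.29 on the log2 scale, but UQCRC2 measured 9.50 and 7.56 TPM in CE and 5.48 and 6.43 in ME (-0.45), which did not pass. A member above 0 with an adjusted p under 0.05 on day 0 was NDUFB9, an accessory subunit of complex I, at 42.4 and 40.4 TPM in CE and 82.4 and 77.8 in ME. Its log2 difference of 0.94 (adjusted p = 8.33e-09) missed the required size, and reached 2.25 with totals made without mitochondrial and structured RNA. NDUFS4, an accessory subunit of the iron-sulfur arm, was the other, at 0.36 (adjusted p = 0.00751).

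The second test set the soluble nuclear extract against CE. On day 0, 38 of 67 members were lower in SNE and 4 higher, when 11.4% of all genes were lower and 34.5% higher. On day 3, 39 were lower and 3 higher (9.23% and 35.2% of all genes), and on day 5, 44 and 2 (11.1% and 40.4%). The members' medians were -1.36, -1.53 and -1.58, while those of all tested genes were 0.61, 0.62 and 0.75. For coding lengths under 500 bases, all tested protein-coding genes had medians of -0.555, -0.551 and -0.544. The 43 tested members of that class had -1.484, -1.824 and -1.995. Totals without mitochondrial and structured RNA left 34, 34 and 38 members lower and 4 higher on each day. Over all genes these totals gave 2012, 1410 and 1967 lower and 9858, 10406 and 10865 higher. Mitochondrial-encoded mRNAs, which are made outside the nucleus, were also higher in SNE than in CE on day 0 for all 13 (median 3.54); their part in the members' difference was not tested beyond that scaling.

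Complex III had 6 of 8 members lower in SNE on day 0 (median -2.31) and complex V 13 of 16 (-1.75). Complex IV had 7 of 12 lower and 2 higher (-1.25), with the same low isoform genes among the 12. Complex I had 12 of 31 lower and 2 higher (-0.80). NDUFB11 was lowest, at 13.4 and 18.5 TPM in SNE against 312 and 341 in CE (-4.29, SE 0.174, adjusted p = 1.50e-11). UQCR10 measured 10.9 and 11.6 TPM in SNE against 235 and 232 in CE (-4.26, SE 0.0908, adjusted p = 2.21e-13). NDUFA1, a subunit of the membrane arm of complex I, NDUFA2 and ATP5MC3, another gene for the c subunit, followed at -3.34, -3.18 and -3.13. These 5 mRNAs were thus 8-fold or more lower in SNE as a share of the library. On days 3 and 5 NDUFB10 (-3.23 and -3.50), ATP5F1D on day 3 (-3.02) and COX7C on day 5 (-3.45) joined NDUFB11, UQCR10 and NDUFA1 among the lowest 5.

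The members that were higher in SNE came from complexes I and IV. NDUFS4 (chr5:53560633-53683340, plus strand, GRCh38) measured 36.3 and 38.2 TPM in SNE against 5.38 and 6.15 in CE on day 0 (2.502, SE 0.101, adjusted p = 1.30e-11), and was higher again on day 3 (2.21) and day 5 (3.05). NDUFA10, an accessory subunit of complex I, measured 26.4 and 27.4 TPM against 10.8 and 10.8 (1.24), and differed by 1.37 and 1.86 on the later days. COX7A2L (chr2:42333546-42425088, minus strand) measured 41.0 and 42.6 against 16.0 and 16.7 (1.301), and differed by 1.15 on day 3 and, below the required size, by 0.85 on day 5. COX6B2, a testis-type isoform of a complex IV subunit, measured 13.3 and 11.1 against 3.35 and 5.75 (1.28) on day 0, and did not pass on the later days. It shares 30.9% of its exon bases with AC020922.1. In none of these 4 did the day 0 libraries of the extracts overlap.

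Long genes stood higher against CE in SNE, and in ME too. For ME minus CE the rank correlation with gene span was 0.29, 0.40 and 0.42 over the members on days 0, 3 and 5. Over all tested protein-coding genes it was 0.59, 0.54 and 0.56, so the trend is not particular to SNE. The rank correlation of the SNE minus CE difference with gene span, the distance on the genome from start to end with introns, was 0.51, 0.54 and 0.55 over the 67 members on days 0, 3 and 5, and 0.67, 0.67 and 0.71 over 14375 tested protein-coding genes. NDUFA10, NDUFS4 and COX7A2L span 132953, 122708 and 91543 bases, where the median of the 83 members is 10798 bases. With coding length the correlation of the SNE minus CE difference over the members was 0.20, 0.29 and 0.27. Genes share their libraries here and are not independent, so no p is given.

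PolyA RNA compared nucleus with cytoplasm in libraries of their own. These are not the fractions of SNE and CE. Of the 13 mitochondrial-encoded mRNAs, 10 were lower in the polyA nucleus and 0 higher (median -1.38). In day 0 SNE all 13 were higher than in CE (median 3.54). Of 72 members tested, 37 were lower and 4 higher in the nucleus than in the cytoplasm on day 0, when 6.22% of 16667 genes were lower and 30.0% higher. The median was -1.08 for the members and 0.50 for all genes. By complex, 15 of 33 members of complex I were lower (median -0.96), 4 of 9 of complex III (-0.92), 9 of 14 of complex IV (-1.13) and 9 of 16 of complex V (-1.12). The spread between complexes that total RNA showed was narrower here. NDUFA1 led with 204 and 167 TPM in the cytoplasm and 41.4 and 40.8 in the nucleus (-2.14, SE 0.0972, adjusted p = 1.57e-05). COX7A2L (-2.11), ATP5MD, a small membrane subunit of the ATP synthase (-2.05), COX8A (-2.02) and NDUFA8 (-1.97) came next. COX6B2 was higher in the nucleus, at 21.8 and 20.6 TPM against 2.60 and 3.15 (2.52, with the same shared exons), as were NDUFB1 (1.31), ATP5PD (1.05, with 1.54 and 1.06 TPM in the nucleus) and the muscle isoform COX7A1 (1.01, with 3.90 and 4.78 TPM in the nucleus).

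The tables parted for a few members, but they differ in both RNA type and fractions, which cannot be told apart. NDUFS4 measured 162 and 158 TPM in polyA cytoplasm and 58.8 and 60.4 in polyA nucleus (-1.41), against the higher value in SNE of total RNA. COX7A2L measured 89.8 and 80.8 in polyA cytoplasm and 19.4 and 18.7 in the nucleus. NDUFS6, a zinc-binding subunit of complex I, differed by 0.19 in total RNA and by -1.91 in polyA RNA. Over the 65 members tested in both tables, 51 were below 0 in both and 7 above 0 in total RNA but below 0 in polyA RNA. Spearman's rho between the tables was 0.34 over these members and 0.48 over 15592 genes. In polyA RNA the rank correlation with gene span was -0.08 over 72 members.

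**Figure D4:**
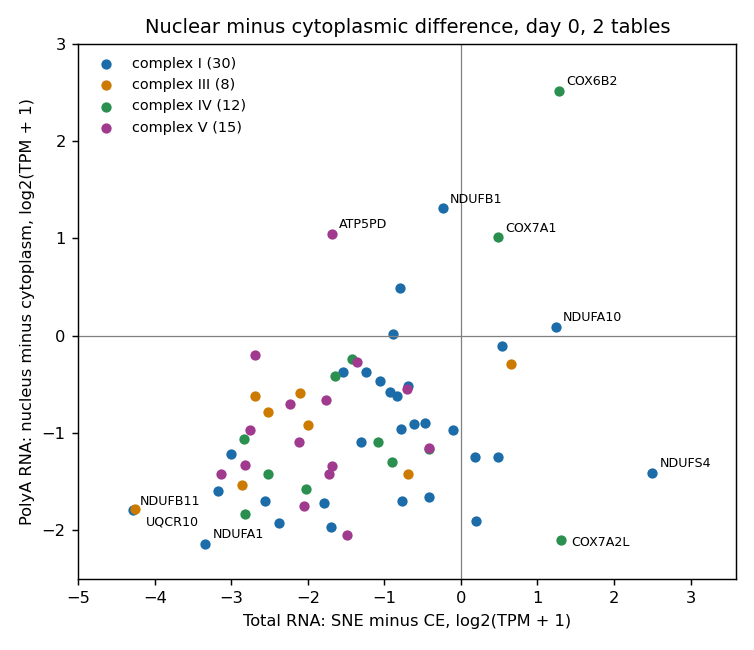
Nuclear minus cytoplasmic difference of the 65 members tested in both tables on day 0, in total RNA (SNE minus CE, horizontal axis) and polyA RNA (vertical axis), as differences of mean log2(TPM + 1), coloured by complex. Of the points, 51 lie below 0 on both axes, and NDUFS4 and COX7A2L lie at the lower right, above 0 in total RNA and below 0 in polyA RNA.

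The shallow extracts are given as values. Of the members at 10 TPM or more in day 0 CE, 58 in number, 5 were higher in CBNE than in CE, and the median ratio of CBNE to CE was 0.117. COX5A, a matrix-side subunit of complex IV, was among them on all days. It measured 103 and 120 TPM on day 0, 86.0 and 95.5 on day 3 and 138 and 121 on day 5, against 81.2 and 82.1, 81.2 and 81.4, and 72.0 and 67.6 in CE. Every CBNE value lay above the CE values of its day. A read on a transcript of 1 kb was worth 33.7 and 39.3 TPM in the day 0 CBNE libraries and 61.8 and 51.8 on day 5. The CBNE values of COX5A thus rest on few reads. NDUFV3, a subunit beside the flavoprotein, measured 40.1 and 46.7 TPM in day 0 CBNE against 30.8 and 30.8 in CE. Between 25 and 38 members were at 0 in a CBNE library, against 9 to 13 in a CE library. In PE the median ratio to CE went from 0.116 at day 0 to 0.193 and then 0.263 at day 5, while a read was worth less TPM on the later days.

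Many members were a little lower after 3 and 5 days of differentiation, and few by much. In INPUT, 2 of 67 members were lower and 1 higher by at least 1 on the log2 scale on day 3 than on day 0, when 5.34% of all genes were lower and 5.17% higher. On day 5, 3 were lower and 0 higher, when 9.32% and 7.63% were. These shares lie below those of all genes. At an adjusted p under 0.05 and any size, 27 members were lower and 5 higher on day 3, and 29 and 2 on day 5. The same rule called 21.4% of all genes lower and 19.7% higher on day 3, and 30.1% and 20.5% on day 5. The members' medians were -0.29 and -0.30, beside -0.01 and -0.09 over all genes, and their share of TPM went from 0.771% ± 0.0069 on day 0 to 0.614% ± 0.00835 and 0.598% ± 0.026 (SD, n = 2). In bulk RNA, fewer cells of a type and less RNA per cell cannot be told apart.

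The largest falls were in isoform genes of complex IV. COX6A2, the heart and muscle isoform, measured 8.38 and 3.29 TPM in day 0 INPUT and 0 in all 4 INPUT libraries of days 3 and 5 (-2.66, SE 0.395, adjusted p = 7.86e-05 and 5.22e-05), values that rest on few reads. COX6B2 measured 4.10 and 5.56 TPM on day 0, 1.00 and 0.356 on day 3, and 0 and 0.211 on day 5 (-1.81 and -2.39), with 30.9% of its exon bases shared. COX7A1 measured 1.29 and 2.36 TPM on day 0 and 0 in both libraries of day 5 (-1.47). With a filter at 5 TPM, COX6B2 was the member still called on each day. NDUFC2, of the complex I membrane arm, was higher on day 3, at 1.39 and 1.32 TPM against 0.210 and 0 on day 0 (1.10), and shares 16.3% of its exon bases with the read-through gene NDUFC2-KCTD14. The ubiquitous forms gave smaller differences: COX4I1 differed by 0.02 and 0.01, COX6B1 by -0.31 and -0.25, COX7A2 by -0.30 and -0.18 and COX7B by -0.47 and -0.58. COX4I2, COX7B2 and COX8C stayed at or under 0.215 TPM in every CE, ME, SNE and INPUT library.

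Among abundant members the differences were modest on the log2 scale. COX7C went from 803 and 767 TPM on day 0 to 508 and 460.5 on day 3 and 447 and 419 on day 5 (-0.70 and -0.86, adjusted p = 4.79e-05 and 4.04e-06). ATP5F1B went from 1180.0 and 1159.9 TPM to 905 and 880, and then 836 and 795 (-0.39 and -0.52). The days do not overlap in either gene. The 3 genes that encode the same c subunit of the ATP synthase differed in course. ATP5MC1 went from 134 and 125 TPM to 103 and 101 and then 62.9 and 73.4 (-0.92 on day 5, adjusted p = 6.07e-05). ATP5MC3 went from 168 and 170 to 134 and 139, and then 136 and 135 (-0.32), and ATP5MC2 from 54.8 and 51.4 on day 0 to 41.5 and 39.1 on day 5 (-0.39). NDUFV1 was level, with differences of 0.05 and -0.04.

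The gap between membrane and cytoplasm itself changed between day 0 and day 5 for 4 members. Of 67 members the change was higher in 2 and lower in 2, when 7.14% of all genes were higher and 0.572% lower. UQCRC1 measured 39.8 and 43.4 TPM in ME on day 0 and 93.0 and 81.4 on day 5, while CE went from 208 and 205 to 187 and 192, a change in the log2 difference of 1.17 (SE 0.157, adjusted p = 5.52e-05). ATP5F1B in ME went from 228 and 262 TPM to 464 and 373, while CE fell from 1595.1 and 1571.0 to 1220 and 1246 (1.13, SE 0.154, adjusted p = 6.69e-05). NDUFB9 went from 82.4 and 77.8 TPM in ME to 31.4 and 31.4, with CE at 42.4 and 40.4 and then 35.9 and 34.9 (-1.10, SE 0.0878, adjusted p = 5.55e-07). NDUFA4 went from 131 and 132 TPM in ME to 68.8 and 62.5, with CE at 213 and 226 and then 230.4 and 220.2 (-1.03, SE 0.0818, adjusted p = 5.51e-07).

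The split of these calls turned with the scaling. Totals without mitochondrial and structured RNA gave 0 higher and 6 lower, quantile normalisation 0 and 6, and a common median 0 and 5. The calls over all genes turned too, from 1660 higher and 133 lower on the deposited scale. They were 668 and 823, 837 and 515, and 665 and 363 on the 3 scales in the same order. UQCRC1 and ATP5F1B stayed above 0 on these scales, at 0.68 to 0.87 and 0.72 to 0.82, but missed the required size. The members' median lay below that of all tested genes on each scale. On the deposited scale the median of all genes was 0.20 and the gap 0.20. With a common median the gap was also 0.20, with quantile normalisation 0.26 and with totals without those RNA classes 0.35. The medians of all genes on these 3 scales were -0.11, -0.02 and -0.09. The gap was 0.31 with a pseudocount of 0.1 TPM, 0.34 with a filter at 5 TPM, 0.05 with no filter and 0.13 without replicate 2 of day 5 ME. In a fit of all 36 libraries, NDUFB9 and NDUFA4 no longer passed (adjusted p = 0.23 and 0.226). Without replicate 2 of day 5 ME, which lies past the gap in library numbers, 3 members were higher and 2 lower.

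Changes were also read by coding length. On the deposited scale the 9 members with at least 1000 coding bases had a median change of 0.63, with 8 above 0, the 15 from 500 to under 1000 bases a median of -0.11 and the 43 under 500 bases -0.08. On that scale the same classes of all tested protein-coding genes had medians of 0.28, 0.24 and 0.22. Most of those genes were above 0 as well: 74.9%, 69.3% and 65.6% of the 3 classes. The medians of the 3 classes, from longest to shortest, were 0.28, -0.52 and -0.46 with totals without mitochondrial and structured RNA, 0.21, -0.41 and -0.28 with quantile normalisation, and 0.32, -0.42 and -0.38 with a common median. On each of these 3 scales 7 of the 9 long members were above 0. The bounds were chosen after the values were seen. ATP5F1A (0.89), NDUFV1 (0.73), UQCRC2 (0.63) and NDUFS1 (0.55) belong to the long class with UQCRC1 and ATP5F1B, with values on the deposited scale that were below the required size. Complex IV, whose nuclear subunits have no coding sequence over 513 bases, had 1 of 12 members above 0 and a median of -0.36 on the deposited scale. Its median was -1.06, -0.86 and -0.66 on the 3 other scales in the same order.

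**Figure D5:**
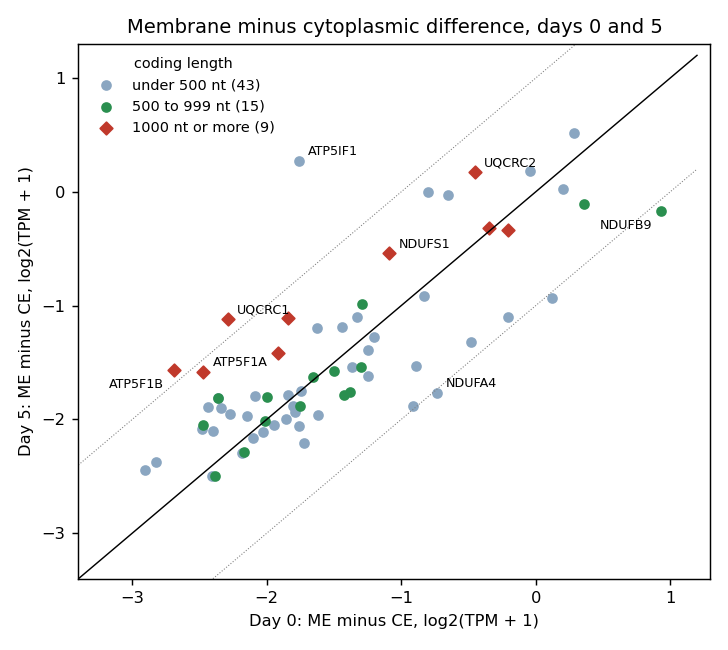
Difference between ME and CE in mean log2(TPM + 1) on day 0 (horizontal axis) and day 5 (vertical axis) for the 67 tested members, marked by coding length, with the line of equality and dotted lines at a change of 1. Of the 9 red diamonds for members of 1000 bases or more, 8 lie above the line of equality, and NDUFB9 and NDUFA4 lie below the lower dotted line. Of all tested protein-coding genes of that length, 74.9% had a change above 0.

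Of 47 tested genes for complex II, cytochrome c and c1 and assembly factors, 25 were lower and 1 higher in ME than in CE on day 0, when 20.4% and 2.13% of all genes were. In SNE 17 of the 47 were lower and 12 higher, beside 11.4% and 34.5% of all genes. Of 9 regulators, 4 were higher in SNE and 0 lower, which is read against the same shares of all genes. In INPUT, 1 of the 47 was lower on day 3 and 3 on day 5, and 1 of the 9 regulators on each day, with 0 higher. Of all genes, 5.34% and 9.32% were lower. The genes that follow are thus named singly and not as a trait of either list. NDUFA4L2, a paralog of NDUFA4, was lower in INPUT on day 3 and day 5 (-1.34 and -1.15). The assembly factors NDUFAF7 (-1.41) and COA7 (-1.06) were lower on day 5, and the coactivator PPARGC1B on day 3 and day 5 (-1.10 and -2.27). CYCS, which encodes cytochrome c, differed by -0.59 and -0.83.

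Promoter letters were searched in RefSeq sequence (GRCh38.p14) for the 64 members that matched, over 250 bases before the start and on both strands. Where RefSeq lists several starts for a gene, the last listed was searched. The ETS-type motif CCGGAAG stood in 14 of 64 (21.9%), against 11.6% of 15843 promoters. The palindromic motif of NRF1 stood in 2 (NDUFB4 and ATP5F1C, 3.12%, against 1.39%), AAGATGGCG of YY1 in 1 (ATP5PF, 1.56%, against 0.713%), GGGCGG in 38 (59.4%, against 54.4%) and CCAAT in 22 (34.4%, against 33.9%). NRF1 and the ETS-family factor GABP are known regulators of respiratory chain genes. As examples, 150 bases before the start are given 5′ to 3′ on the gene's strand, with motif letters in capitals, for ATP5F1C at chr10:7788027-7788176 (plus strand), with the NRF1 motif, and for COX5B at chr2:97645912-97646061 (plus strand), with the ETS-type motif and GGGCGG on either strand.
ATP5F1C: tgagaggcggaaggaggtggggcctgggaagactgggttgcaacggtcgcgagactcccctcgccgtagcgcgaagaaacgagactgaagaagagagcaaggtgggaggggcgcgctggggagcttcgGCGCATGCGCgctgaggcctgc
COX5B: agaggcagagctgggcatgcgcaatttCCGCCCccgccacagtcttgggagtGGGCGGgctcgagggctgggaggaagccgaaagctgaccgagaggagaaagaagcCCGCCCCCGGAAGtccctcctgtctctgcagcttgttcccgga
A match is a description of letters and not of a bound factor. ATP5F1C encodes the gamma subunit that turns inside the ATP synthase, and COX5B a subunit of complex IV.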

How the data were processed

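The submitters' processing notes name the build hg38 and, among tools, Salmon 1.3.0, featureCounts 1.6.2, GATK and HISAT2 2.0.5; which tool made which table is not given in the sources used here. Both deposited tables hold TPM as the authors computed it, a unit inferred from column sums of 989513 to 998559 in the total RNA table. No read counts were used. Gene identifiers were matched to GENCODE 29 (GRCh38) for coordinates, exons and coding lengths: all 57939 of the total RNA table and 58216 of 58336 of the polyA table matched.

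log2(TPM + 1) was fitted with limma 3.58.1 in R 4.3.3 (trended, robust variance prior), with 1 mean per group, in 24 libraries of CE, ME, SNE and INPUT (12 residual degrees of freedom) and separately in the 4 polyA libraries (2 residual degrees of freedom). The test took genes that reached 1 TPM in no fewer than 2 libraries, p-values were adjusted by Benjamini-Hochberg over all of them, and calls needed an adjusted p under 0.05 and an absolute log2 difference of at least 1. A difference on this scale understates the change of genes at low TPM. The procedure was tested on simulated data. Members and lists were chosen with earlier results of these data known. The text names, per comparison, the 5 called members that were highest and the 5 that were lowest, the 2 most abundant in INPUT per complex, catalytic members, isoform genes and NDUFA4; other names were chosen after their values were seen. Values of 1 catalytic member are not reported here. Exon sharing is the percentage of a gene's exon bases covered by exons of other genes on its strand. Alternatives were a pseudocount of 0.1 TPM, no filter or one at 5 TPM, 3 other scalings, a replicate block, each library left out, and a fit of all 36 libraries.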

Additional observations from a re-analysis of the deposited data

Results flagged for a closer look

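The difference between ME and CE itself differed between day 0 and day 5 by a test of the change for 4 members (limma, Benjamini-Hochberg over all genes). The change was 1.17 for UQCRC1 and 1.13 for ATP5F1B, which were nearer to CE on day 5. It was -1.10 for NDUFB9 and -1.03 for NDUFA4, which were further below CE or had dropped from above it. Scaling decided whether the first 2 reached the required size and the fit of all 36 libraries whether the last 2 passed, and the part of either setting in these changes was not tested.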

How the results depend on the processing

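Calls of members in SNE against CE and in polyA RNA stayed within 1.5 times of the reported count under every alternative run, between 37 and 59 on the 3 days in SNE and between 37 and 55 in polyA RNA, left-out libraries included. Counts for ME against CE moved with 2 scalings: quantile normalisation gave 25, 31 and 34 calls for days 0, 3 and 5, and totals without mitochondrial-encoded and structured RNA 18, 18 and 23. A filter at 5 TPM left 1 member called in INPUT on day 3 and 1 on day 5, since it tests fewer genes. The change of ME against CE between day 0 and day 5 gave 2 calls in a fit of all 36 libraries. That fit also has 1 mean per group. Its median changes were those of the main fit, 0.63 for the long class and -0.36 for complex IV. The part of the variance in the lost calls was not tested. Leaving out each library in turn gave 49 to 50, 50 to 53 and 51 to 53 calls for ME on days 0, 3 and 5, 41 to 42, 43 to 45 and 43 to 46 for SNE, 2 to 4 for INPUT on either day, 3 to 5 for the change and 37 to 45 in polyA RNA.

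Some members reversed direction. In ME against CE on day 0, quantile normalisation gave ATP5MC1 0.068, COX4I1 0.084 and NDUFB4 0.119, and totals without mitochondrial and structured RNA gave ATP5MC1 0.064, NDUFB4 0.112, NDUFS1 0.17, NDUFS6 0.00099, COX7A2L 1.06 and NDUFA10 1.04. In SNE against CE, a common median gave COX6B2 -1.001 on day 3, and COX6A2 -1.31 and NDUFS6 -1.16 on day 5. COX6A2 was at 0 TPM in every day 5 library of CE and SNE. It had no direction to reverse, and its value comes from the scaling alone. For the other members the cause was not tested.

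Replicate numbers did not pair the libraries, since same-numbered deviations correlated between -0.04 and 0.06. A replicate block left all counts as reported: 49, 52 and 52 for ME, 42, 42 and 46 for SNE, 3 and 3 for INPUT, 4 for the change and 41 for polyA RNA. Members at a few TPM, among them COX6A2, COX7A1 and NDUFC2, rest on few reads.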
